A study of Bos taurus with 6 samples.

Results

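Chemokines, inflammatory cytokines and the inducible prostaglandin synthase were followed in bovine primordial follicles (PMF) before and after culture. The 10 genes, of 23704 genes with a matched transcript, are CXCL5, CXCL2, CXCL8, CCL2, CCL20, IL6, IL1A, IL1B, LIF and PTGS2. They were chosen by name with earlier results of these libraries known, among them the difference of CXCL5 between the groups, so the values of these 10 genes between T0 and T16 are a description and carry no test. Of the 10, 7 passed the filter of at least 10 counts in at least 3 libraries, and CCL2, CCL20 and LIF did not. CXCL2 and CXCL8 passed it only through the T16 libraries and T0 replicate 3, since no read was assigned to either gene in the other T0 libraries. CXCL5, with 5, 18 and 24 counts at T0, also passed it only with the T16 libraries, where it was high.

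RNA was sequenced from 3 pools of PMF at T0 and 3 pools at T16. The T0 pools hold follicles isolated mechanically from abattoir ovaries of Holstein Friesian cows of 12 to 24 months and, by the study's methods, kept for 1 h in recovery medium with insulin and FSH before collection. The T16 pools hold isolated PMF after 16 h in culture, and the medium and vessel of that culture are not given in the sources used here. Both groups are whole follicles, labelled as oocyte and pregranulosa cells, and the labels name no genetic or drug treatment. No source used here ties pools to animals, so p-values measure the spread between pools, which may share animals. In such bulk samples, fewer cells of a type and less RNA per cell cannot be told apart.

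A primordial follicle is an arrested oocyte inside a layer of flat pregranulosa cells, embedded in the collagen-rich cortex of the ovary. CXC chemokines such as CXCL5, CXCL2 and CXCL8 are small secreted proteins that attract neutrophils through the receptors CXCR1 and CXCR2, while CC chemokines such as CCL2 and CCL20 attract monocytes and lymphocytes. Their genes, with those of IL6, IL1A, IL1B, LIF and PTGS2, are textbook targets of IL-1, TNF and Toll-like receptor signalling through NF-kB, and stromal and epithelial cells can transcribe them as well as leukocytes. PTGS2, or COX-2, makes the precursor of prostaglandin E2, which in the ovary is best known for its part in ovulation.

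The libraries held 22174653 to 36703016 estimated counts, of which 19816019 to 33126886 were matched to genes. Over the matched counts, 3 counts came to 0.0906 to 0.151 CPM, which are counts scaled to a common library size. Marker levels varied within both groups. In every marker list the median log2 fold change lay below -0.08, the median over all genes tested. It ran from -0.13 for endothelial markers to -1.85 for smooth muscle and pericyte markers. The oocyte marker list summed to 442, 2010 and 2800 TPM, a length-corrected share of the transcripts of a library, in T0 replicates 1, 2 and 3 and to 1890, 44.0 and 742 TPM in T16 replicates 1, 2 and 3. The pregranulosa list summed to 1210, 2140 and 1040 TPM at T0 and to 514, 1440 and 449 TPM at T16. Of its 12 genes 5 lay below and 1 above without overlap, against 10.6% and 13.2% of all genes tested. Their median log2 fold change was -1.33. edgeR called none of these 12, and DESeq2 called GATM, WNT6 and FSHR lower and FST higher. Of all genes tested DESeq2 called 2.96% lower and 4.06% higher. WNT6, FSHR and LGR5, all among the 5 below, passed the count filter only with the T0 libraries, where they were high. Of 8 tested smooth muscle and pericyte markers 3 lay below and 0 above (median -1.85), and of 14 oocyte markers 0 lay below and 0 above. The 3 smooth muscle genes, ACTA2, MYH11 and NOTCH3, also passed the filter only with the T0 libraries, where they were high. Nothing is read from their count. The part of such marker differences in the members' levels was not tested. Stromal fibroblast markers were also found in every library, from 299 TPM in T16 replicate 1 to 2460 TPM in T0 replicate 1. The 22 leukocyte markers summed to 13.9, 47.8 and 48.2 TPM at T0 and to 62.5, 10.1 and 15.8 TPM at T16, with CD53, CD2, CD79A, NKG7, CD163 and C1QA at 0 in all 6 libraries and PTPRC, the pan-leukocyte CD45 gene, at no more than 0.935 TPM. CSF1R, a macrophage receptor, was the highest of these markers in 5 of 6 libraries, all but T16 replicate 2. Of 8 tested leukocyte markers 2 lay above and 0 below, CORO1A and CD68, and both passed the filter only with the T16 libraries. CORO1A had 1.12, 0.992 and 0 TPM at T0 and 2.91, 3.51 and 1.95 TPM at T16. Among those not tested, S100A9 had 0 TPM at T0 and 3.52, 0.727 and 0.254 TPM at T16, while CD3D lay below by scaled CPM.

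The 3 CXC chemokines were at or below 6.25 TPM in every T0 pool and at or above 42.5 TPM in every T16 pool, while the other members lay low in both groups or overlapped between them. Among the 23704 genes ordered by TPM, CXCL5 ranked between 13243 and 14526 at T0 and between 787 and 1303 at T16. Of the 7 members past the filter, CXCL5, CXCL2, CXCL8 and IL1A were higher in every T16 library than in every T0 library and 0 were lower. Over all 14639 genes tested, 13.2% were higher and 10.6% lower in every T16 library. These shares are on CPM scaled by TMM, and genes above made up 55.5% of the non-overlapping genes, against 45.4% without that scaling. edgeR at a false discovery rate (FDR) below 0.05 called CXCL5 higher among the members, where it called 0.0342% of all genes higher and 0.00683% lower. DESeq2 called CXCL5 and CXCL2 higher, where it called 4.06% of all genes higher and 2.96% lower. The members were chosen on this contrast, so nothing is read from these counts.

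**Figure D1:**
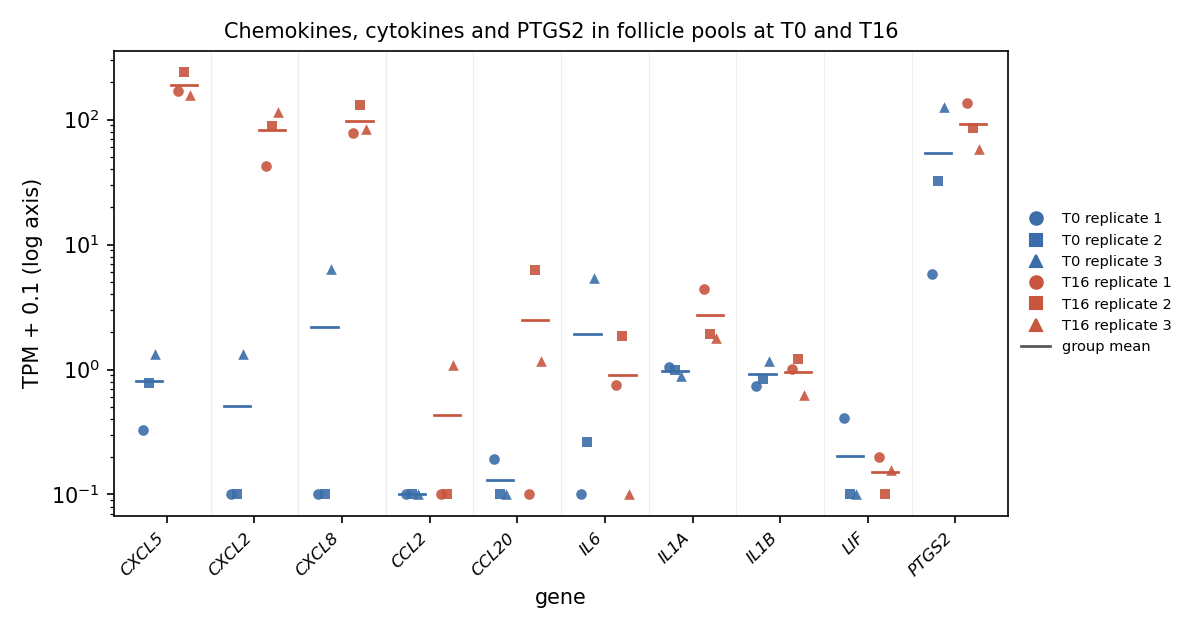
TPM + 0.1 of the 10 chemokine and cytokine genes in each library, on a log axis, with T0 in blue and T16 in red; points are single libraries and lines are group means. CXCL5, CXCL2 and CXCL8 lie at 42.5 TPM or more in every T16 library and at 6.25 TPM or less in every T0 library, while PTGS2, IL6 and IL1B overlap between the groups.

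CXCL5 was the most abundant chemokine of the list after culture. It had 0.230, 0.684 and 1.22 TPM in T0 replicates 1, 2 and 3 and 171, 240 and 157 TPM in T16 replicates 1, 2 and 3. No T16 library came near any T0 library, and the T16 pools differed among themselves by less than the distance between the groups. Behind these levels stood 5, 18 and 24 counts at T0 and 3794, 4698 and 5206 counts at T16, so the level at T0 is itself poorly determined. The ratio of the summed CPM was 254, with an exact 95% interval of 191 to 346 that, as for all intervals here, covers counting error only. With single libraries left out, the fitted log2 fold change was lowest, at 7.84, without T0 replicate 1, and highest, at 8.71, when T0 replicate 3 was dropped. The edgeR call on CXCL5 held without T0 replicate 1 and was lost when any other library was left out and with the replicate number as a block.

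CXCL8, the chemokine first described as interleukin 8, was listed at 0 in T0 replicates 1 and 2 and at 6.25 TPM in T0 replicate 3. It had 78.0, 131 and 83.8 TPM in the T16 libraries. Its counts were 0, 0 and 123 at T0 and 1727, 2546 and 2774 at T16. T0 replicate 3 held every T0 read of the gene and still lay below the lowest T16 library. The fitted log2 fold change was 5.77 (SE 1.93, n = 3 and 3), and the ratio of the summed CPM was 49.9 (41.8 to 60.1). Against T0 replicates 1 and 2 alone, with a floor of 3 counts over both libraries, CXCL8 was at least 1480-fold higher at T16.

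CXCL2 was likewise at 0 in T0 replicates 1 and 2, and it was below CXCL8 in T16 replicates 1 and 2 and above it in replicate 3. In T0 replicate 3 it had 1.23 TPM, from 17 counts. At T16 it had 42.5, 88.9 and 116 TPM, from 668, 1211 and 2546 counts. The log2 fold change was 7.88 (SE 1.65), the ratio of the summed CPM was 227 (141 to 390), and without T0 replicate 3 the gene was at least 928-fold higher at T16 over the same kind of floor. Nearly all of this signal lay on the longer of its RefSeq transcripts, of 1113 bases, with 42.1, 86.4 and 105 TPM at T16, against 0.442, 2.49 and 11.1 TPM on the transcript of 371 bases.

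Of the 3 CXC chemokines CXCL5 held the largest part in every T16 library, while CXCL8 and CXCL2 changed places in replicate 3. CXCL5 held 58.6%, 52.3% and 44.0% of their summed TPM in replicates 1, 2 and 3, CXCL8 held 26.8%, 28.4% and 23.5%, and CXCL2 held 14.6%, 19.3% and 32.5%. Together they summed to 291, 460 and 356 TPM, which was 67.3%, 82.6% and 85.1% of the TPM of all 10 members. At T0 they had summed to 0.230, 0.684 and 8.70 TPM, or 2.91%, 1.96% and 6.17%, since PTGS2 held most of the members' TPM there. Among the T16 libraries the sum was highest in replicate 2, where oocyte markers were lowest at 44.0 TPM. It was lowest in replicate 1, at 291 TPM, where stromal markers were lowest at 299 TPM. A relation of the sum to either marker list was not tested.

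CXCL8, CXCL5 and CXCL2 lie in one row of CXC chemokine genes in the RefSeq gene order, which ends with CXCL3 and GRO1, the bovine name of the gene that matched as CXCL1. GRO1 had 0.923, 0 and 4.74 TPM at T0 and 6.42, 23.4 and 29.9 TPM at T16. CXCL3 had 0, 0.752 and 5.55 TPM at T0 and 7.52, 9.14 and 17.5 TPM at T16. Both had every T16 library above every T0 library, and neither passed the test, with a log2 fold change of 3.64 for GRO1 (SE 1.62, edgeR adjusted p = 0.385) and 2.72 for CXCL3 (SE 1.59, edgeR adjusted p = 0.523). Their T0 counts were 14, 0 and 65 for GRO1 and 0, 13 and 72 for CXCL3. Both thus passed the filter only with the T16 libraries, where they were high, and their fold changes carry little weight. CXCL2, CXCL3 and GRO1 are close copies of one another, so Salmon could divide their reads in different ways and the level of each is uncertain. Bovine CXCL5 also carries CXCL6 as a synonym, and no separate CXCL6 gene was matched.

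The row did not behave as a block. PPBP, the platelet basic protein gene, was at 0 in all 6 libraries, although it lies between CXCL5 and CXCL2. Its neighbour PF4, platelet factor 4, had a TPM above 0 only in replicate 3 of each group, at 1.03 at T0 and 1.3 at T16. LOC534181, the gene between CXCL8 and CXCL5, stayed between 0.0544 and 0.609 TPM.

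**Figure D2:**
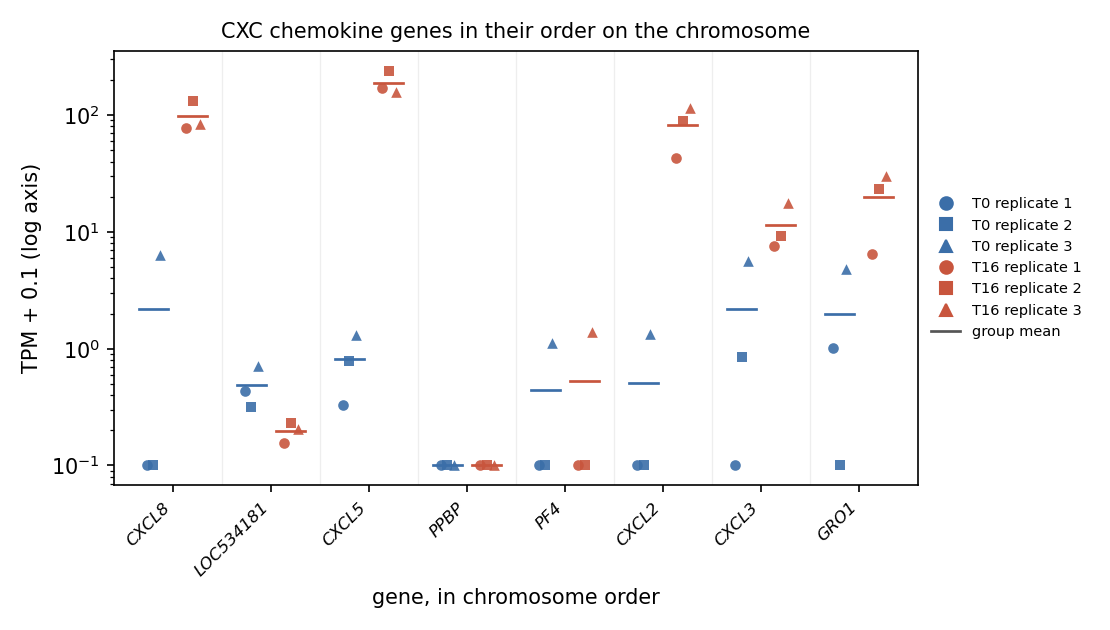
TPM + 0.1, on a log axis, of the genes of the CXC chemokine row in their RefSeq order; points are single T0 (blue) and T16 (red) libraries and lines are group means. CXCL8, CXCL5 and CXCL2 stand at 42.5 TPM or more at T16, CXCL3 and GRO1 at 6.42 to 29.9 TPM, and PPBP at 0 in every library.

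The CC chemokines of the list were scarce in both groups. CCL20, the ligand of CCR6, had 0.0907, 0 and 0 TPM at T0 and 0, 6.16 and 1.07 TPM at T16, so 1 of 3 T16 libraries lay at or below all T0 libraries. Its counts were 1, 0 and 0 at T0 and 0, 49 and 18 at T16, a ratio of the summed CPM of 58.4 with a counting interval of 10.1 to 2340. CCL2, the main monocyte attractant, had no count at T0 and 15 counts, at 0.992 TPM, in T16 replicate 3 alone. Summed over the group this was at least 4.35-fold above a floor of 3 counts for T0, and it rests on that library.

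The cytokines stayed at a few TPM at most. IL1A, the alarmin form of interleukin 1, had 0.948, 0.889 and 0.795 TPM at T0 and 4.32, 1.81 and 1.70 TPM at T16, with no overlap between the groups. The log2 fold change of 1.63 (SE 0.85) was 1.09 without T16 replicate 1, the library that held 135 of the 264 T16 counts. IL1B, its relative on the same chromosome, had 0.639, 0.738 and 1.08 TPM at T0 and 0.911, 1.11 and 0.524 TPM at T16. These groups overlapped throughout, with a log2 fold change of 0.15 (SE 0.88) that ranged from -0.05 to 0.33 when single libraries were left out.

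IL6 had 0, 0.163 and 5.31 TPM at T0 and 0.646, 1.76 and 0 TPM at T16. T0 replicate 3, with 73 counts, was the highest library and T16 replicate 3, with 0 counts, shared the lowest level with T0 replicate 1. The log2 fold change of -1.06 (SE 2.12) therefore turned on 1 library: without T0 replicate 3 the means were 0.0813 TPM at T0, from 3 counts, and 0.802 TPM at T16. LIF, a cytokine of the IL-6 family, reached 0.310 TPM in T0 replicate 1, 0.101 TPM in T16 replicate 1 and 0.0567 TPM in T16 replicate 3, and it was at 0 in the remaining 3 libraries. Its 14 counts in all allow no comparison.

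PTGS2 was the member with the highest level at T0 and overlapped between the groups. It had 5.69, 32.4 and 125 TPM in T0 replicates 1, 2 and 3 and 135, 86.2 and 57.9 TPM in T16 replicates 1, 2 and 3. The T16 pools all exceeded T0 replicates 1 and 2, and T0 replicate 3 lay just under the highest T16 pool. The spread was that of well counted libraries, with 312 to 7598 counts each, and not of sparse reads. The log2 fold change was 0.94 (SE 0.89), 0.42 when T0 replicate 1 was left out and 2.33 when T0 replicate 3 was left out. Without T0 replicate 3 the mean went from 19.0 TPM to 93.2 TPM.

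T0 replicate 3 was the highest T0 library for 6 of the 7 members past the filter, all but IL1A, where it was the highest for 37.3% of all genes tested. It also led for 9 of 13 interferon response genes, 5 of 7 genes of cytokine mRNA decay and 9 of 14 oocyte markers, but for 2 of 17 genes of IL-1, TNF and Toll-like receptor signalling, 0 of 12 pregranulosa markers and 0 of 8 smooth muscle markers. ZFP36, whose protein binds and destabilizes TNF and cytokine mRNA, had 450, 507 and 2320 TPM at T0, against 379, 229 and 264 TPM at T16. ISG15 had 26.5, 156 and 1150 TPM at T0. Without this library, no read of CXCL2 or CXCL8 and 3 reads of IL6 remain at T0.

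The pathway around these genes was read from 11 lists that hold none of the members, of which 173 genes were found and 115 tested. Of the 115, edgeR called 0 higher and 0 lower, with 18 and 10 at an unadjusted p below 0.05. DESeq2 called 8 higher, which were BIRC3, CXCR2, IL11, IL6ST, NFKB1, NFKB2, NFKBIE and RELB, and 6 lower, which were CXCL10, OAS1Y, PTGDS, PTGES2, RSAD2 and TLR5. These 14 are named by that call, which DESeq2 made for 4.06% of all genes upward and 2.96% downward. CXCR2 and IL11 passed the filter only through T16, and CXCL10, RSAD2 and TLR5 only through T0, each the group where the gene was high, so these 5 had to differ between the groups and their p-values carry little weight. OAS1Y, with 0, 151 and 60 counts at T16, also passed only with the T0 libraries, where it was high. Its p-value is limited in the same way. Non-overlapping libraries placed 23 of the 115 above and 15 below, where 13.2% and 10.6% of all genes did so, and the median log2 fold change was -0.12, against -0.08 over all genes tested. Among the 23 and 15, GRO1, CXCL3, IL1RAP, IL34, TNFSF10 and CMPK2 likewise passed the filter only with the group where they were high.

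**Figure D3:**
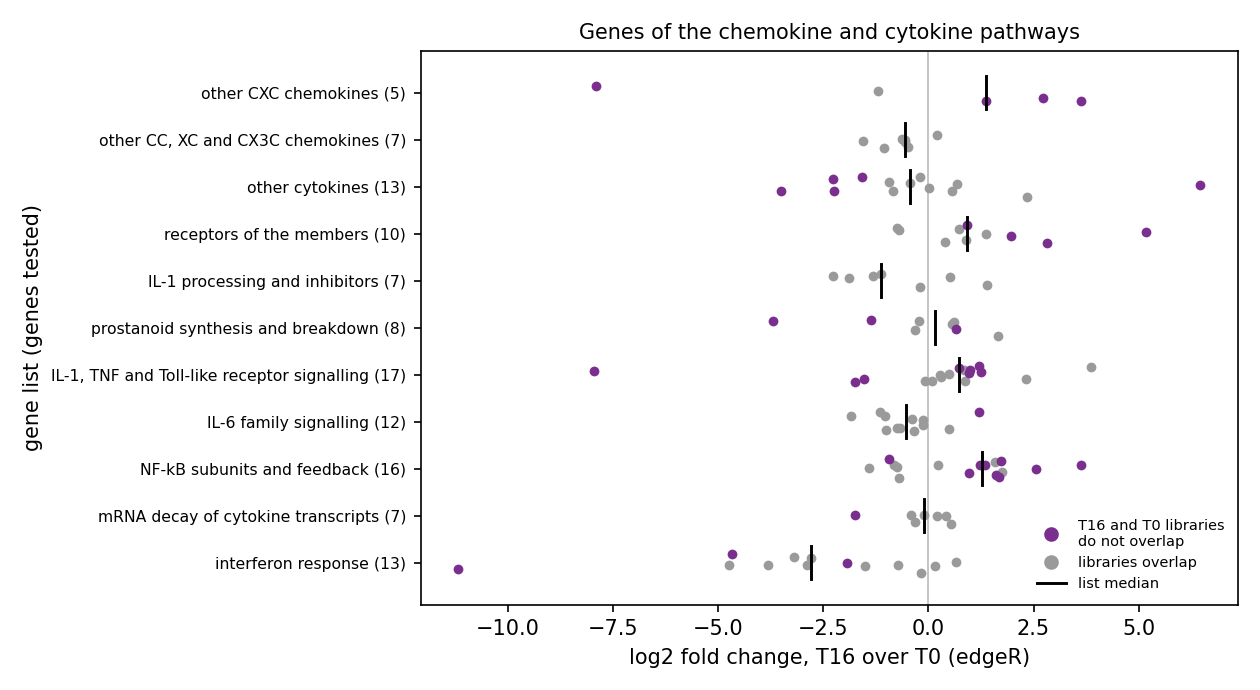
Fitted log2 fold change (T16 over T0, edgeR) of every tested gene in the 11 pathway lists; each point is a gene, purple where the T16 and T0 libraries do not overlap, and black bars are list medians. The medians run from -2.80 for the interferon response to 1.37 for the other CXC chemokines, and no gene passed edgeR's FDR.

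Among the receptors, 10 of 16 were tested, none passed in edgeR, and DESeq2 called CXCR2 and IL6ST. CXCR2, which binds CXCL5, CXCL2 and CXCL8, had 0, 0.881 and 0 TPM at T0 and 15.4, 7.92 and 1.42 TPM at T16. Its groups did not overlap, and its 0, 32 and 0 counts at T0 against 589, 246 and 95 at T16, which let it pass the filter through T16 alone, gave a log2 fold change of 5.17 (SE 1.92, edgeR adjusted p = 0.291, DESeq2 adjusted p = 0.0306). CXCR1, the other receptor of CXCL8, stayed between 0 and 0.537 TPM. Of the atypical receptors, which take up chemokines without G protein signalling, ACKR3 had 13.8, 15.4 and 15.4 TPM at T0 and 20.3, 14.4 and 63.7 TPM at T16 (edgeR adjusted p = 0.446). ACKR1 and ACKR2 did not exceed 1.5 TPM in any library, and CCR2 and CCR6, the receptors of CCL2 and CCL20, were at 0 in all 6.

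IL6ST, the gp130 subunit through which IL-6, IL-11 and LIF signal, had 79.8, 38.6 and 34.9 TPM at T0 and 499, 389 and 182 TPM at T16. Its log2 fold change of 2.81 had an SE of 0.57, with an edgeR adjusted p of 0.107 and a DESeq2 adjusted p of 2.55e-05. The subunits that bind the ligands did not share that distance. IL6R had 4.22, 14.4 and 12 TPM at T0 and 5.94, 3.70 and 6.20 TPM at T16 (edgeR adjusted p = 0.667), and LIFR had 3.71, 9.11 and 9.10 TPM against 12, 6.51 and 2.35 TPM (edgeR adjusted p = 0.840).

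The receptor of IL-1, IL1R1, had 1.17, 0.905 and 4.43 TPM at T0 and 0.406, 7.39 and 2.26 TPM at T16, and its partner IL1RAP stayed at or below 1.4 TPM, with levels that overlapped by TPM and not by scaled CPM. IL1RAP passed the filter only with the T16 libraries. Of the receptors of prostaglandin E2, PTGER1, PTGER2 and PTGER4 overlapped between the groups and PTGER3 did not, with 0.616, 0.457 and 0.644 TPM at T0 and 0.717, 2.42 and 0.851 TPM at T16. None of the 4 averaged above 5.13 TPM in either group. The edgeR adjusted p was 0.836 for IL1R1, 0.637 for IL1RAP and 0.672 for PTGER3.

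**Figure D4:**
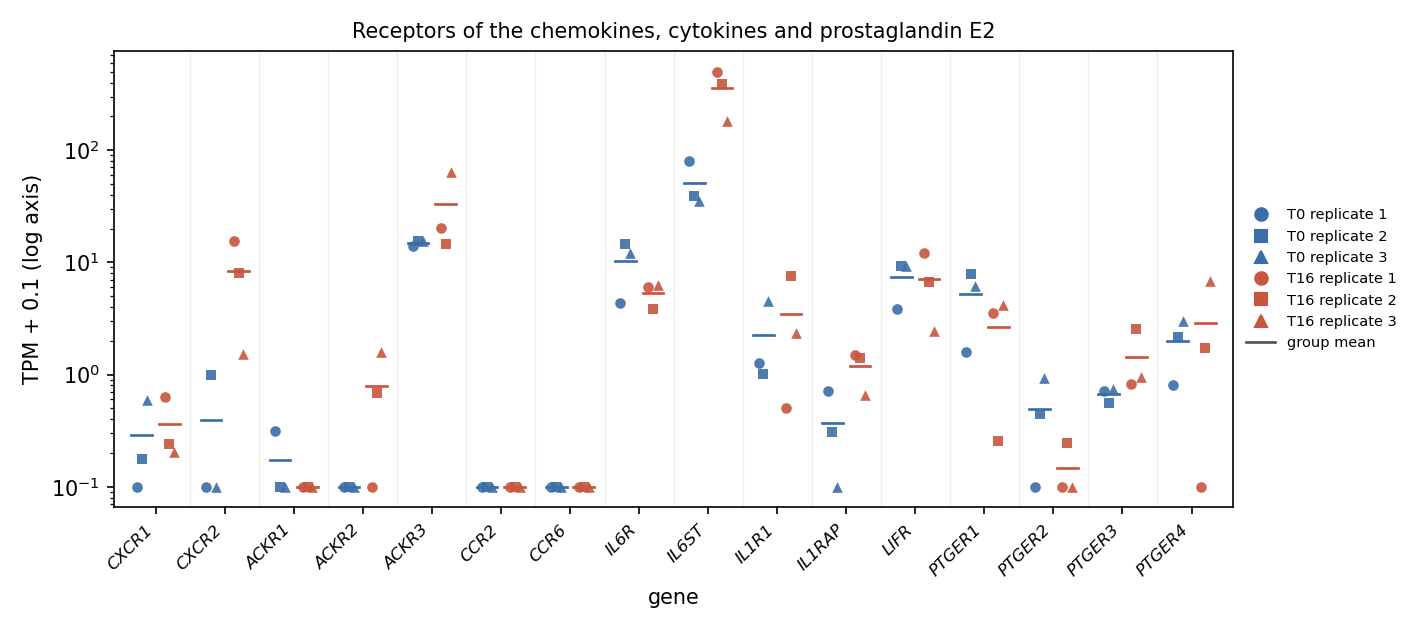
TPM + 0.1 of the 16 receptor genes for the member chemokines, the cytokines and prostaglandin E2, on a log axis; points are single T0 (blue) and T16 (red) libraries and lines are group means. IL6ST is the highest receptor in every library, CXCR2 is above its T0 levels in every T16 library, and CCR2 and CCR6 lie at 0 throughout.

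Of 11 other genes of prostanoid synthesis and breakdown 8 were tested, and PTGES2 and PTGDS were lower in every T16 library than in every T0 library. PTGES2, a membrane-associated prostaglandin E synthase, had 469, 1470 and 614 TPM at T0 and 31.9, 92.0 and 54.1 TPM at T16. Its log2 fold change was -3.69 (SE 0.61, edgeR adjusted p = 0.0877, DESeq2 adjusted p = 3.59e-08). PTGDS, which makes prostaglandin D2, had 358, 761 and 809 TPM at T0 and 219, 226 and 222 TPM at T16, a log2 fold change of -1.37 (SE 0.35, edgeR adjusted p = 0.145, DESeq2 adjusted p = 0.0124).

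PTGES3, the cytosolic prostaglandin E synthase that is also a chaperone partner, lay the other way, with 413, 433 and 545 TPM at T0 and 786, 659 and 595 TPM at T16. Its distance was small, at a log2 fold change of 0.66 (SE 0.31, edgeR adjusted p = 0.397). AKR1B1, an aldose reductase with prostaglandin F synthase activity in cattle, ranged from 257 to 1030 TPM and overlapped between the groups. PTGS1, the constitutive cyclooxygenase COX-1, had 0.273 TPM in T0 replicate 1 and 0 in the other 5 libraries, so PTGS2 was the higher of the cyclooxygenase genes in every library.

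**Figure D5:**
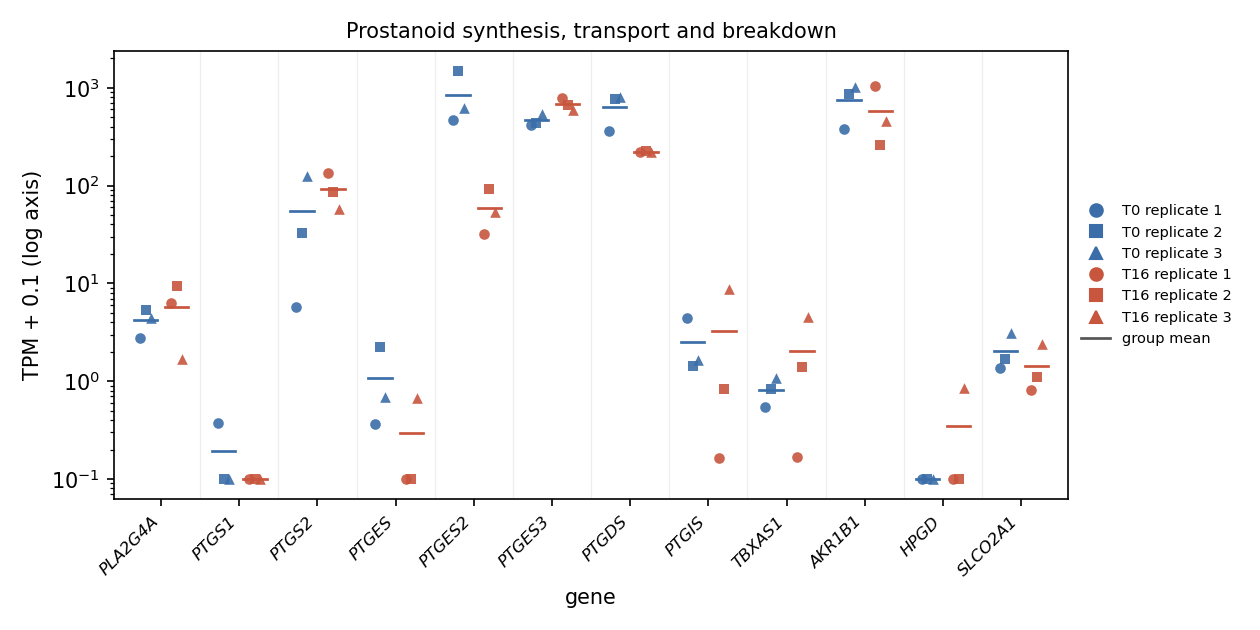
TPM + 0.1 of PTGS2 and of the genes for prostanoid synthesis, transport and breakdown, on a log axis; points are single T0 (blue) and T16 (red) libraries and lines are group means. PTGES2 and PTGDS are lower in every T16 library, PTGES3 is slightly higher, and PTGS2 overlaps between the groups.

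The remaining chemokines gave no shared direction. Of 12 other CXC chemokines 5 were tested. CXCL16, a transmembrane chemokine and scavenger receptor, had 16.7, 25.0 and 11.6 TPM at T0 and 31.3, 46.3 and 48.0 TPM at T16, a log2 fold change of 1.37 (SE 0.53, edgeR adjusted p = 0.311). CXCL12, the stromal ligand of CXCR4, had 66.7, 41.6 and 23.3 TPM at T0 and 4.73, 20.3 and 26.9 TPM at T16 (edgeR adjusted p = 0.565). CXCL10, which interferon induces, went from 0.602, 2.48 and 2.26 TPM to 0 in all 3 T16 libraries and rested on 10, 50 and 34 counts at T0, through which alone it passed the filter (edgeR adjusted p = 0.138, DESeq2 adjusted p = 0.0433).

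Of 20 other CC, XC and CX3C chemokines 7 were tested, with 0 above and 0 below, against 13.2% and 10.6% of all genes. CCL25 had 17.3, 11.3 and 10.8 TPM at T0 and 11.7, 15.5 and 15.4 TPM at T16. XCL1, a chemokine known from lymphocytes, was far higher, at 2930, 1030 and 417 TPM at T0 and 1.05, 707 and 1960 TPM at T16, with an edgeR adjusted p of 0.927. Its close copy XCL2 had 0 to 24 TPM, and the ratio of their TPM was 84.5 to 122 in the 5 libraries with XCL2 reads, so how far the copies can be told apart is uncertain.

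Of 32 other cytokines 13 were tested, and 1 lay above and 4 below, against 13.2% and 10.6% of all genes. Of the 4 below, IL34 and TNFSF10 passed the filter only with the T0 libraries, where they were high. TNF, IL10, IL17A, IL36G, CSF2, IFNG and EBI3 were at 0 in all 6 libraries, so TNF, the textbook inducer of this gene group, was not detectable above 0.0906 to 0.151 CPM, the level of 3 counts. IL11, a gp130 cytokine, had 0, 0.376 and 0 TPM at T0 and 6.77, 2.47 and 20.9 TPM at T16, on 7 counts at T0, so it passed the filter through T16 alone. Its log2 fold change was 6.47 (SE 1.85, edgeR adjusted p = 0.182, DESeq2 adjusted p = 0.00189). IL18, a relative of IL-1 that caspase 1 activates, lay the other way, at 69.0, 29.1 and 29.7 TPM against 1.84, 15.3 and 8.47 TPM (edgeR adjusted p = 0.339). CSF1, the macrophage growth factor, had 0.922, 1.93 and 8.95 TPM at T0 and 7.53, 16.2 and 25.7 TPM at T16, which overlapped (edgeR adjusted p = 0.316).

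Genes that process or block IL-1 were low and overlapped in 7 of 7 tested. IL1RN, the natural receptor antagonist of IL-1, had 4.88, 2.53 and 0.521 TPM at T0 and 0, 0 and 1.80 TPM at T16 (edgeR adjusted p = 0.767). Of 17 tested genes of IL-1, TNF and Toll-like receptor signalling 5 lay above and 3 below, against 13.2% and 10.6% of all genes. The adaptors TRAF6 and TRAF2 had means of 35.1 and 29.1 TPM at T0 and of 64.6 and 61.7 TPM at T16, without overlap (edgeR adjusted p = 0.206 and 0.201). TNFRSF1A, the main TNF receptor, averaged 71.8 TPM at T0 and 123 TPM at T16 with overlap (edgeR adjusted p = 0.476). TLR5, the flagellin receptor, had 1.08, 5.46 and 1.29 TPM at T0 and 0.0225, 0 and 0 TPM at T16, so it passed the filter through T0 alone (edgeR adjusted p = 0.107, DESeq2 adjusted p = 0.000106).

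Of 16 tested genes for NF-kB subunits and feedback, 8 lay above and 1 below, against 13.2% and 10.6% of all genes, at a median log2 fold change of 1.28. NFKB2 had 42.0, 34.6 and 27.8 TPM at T0 and 143, 96.7 and 81.2 TPM at T16, with no overlap. Its log2 fold change was 1.69 (SE 0.35, edgeR adjusted p = 0.107, DESeq2 adjusted p = 0.00123). BIRC3 had 12.4, 11.0 and 36.9 TPM at T0 and 380, 149 and 177 TPM at T16, also without overlap. The log2 fold change of BIRC3 was 3.64 (SE 0.66, edgeR adjusted p = 0.0921, DESeq2 adjusted p = 8.76e-06). NFKBIA, the inhibitor that NF-kB itself induces, had 127, 155 and 256 TPM at T0 and 128, 57.2 and 71.3 TPM at T16, which overlap by TPM and lie below T0 by scaled CPM (edgeR adjusted p = 0.348). In the IL-6 family list the 12 genes had a median log2 fold change of -0.53. SOCS3, the feedback inhibitor of gp130 signalling, had 47.4, 20.5 and 95.3 TPM at T0 and 7.99, 20.1 and 13.5 TPM at T16 (log2 fold change -1.84, SE 0.63, edgeR adjusted p = 0.251), and STAT3 overlapped between the groups (edgeR adjusted p = 0.938).

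The interferon response list lay lowest, with a median log2 fold change of -2.80 over 13 tested genes. Of these 0 lay above and 3 below, against 13.2% and 10.6% of all genes. Those 3, RSAD2, OAS1Y and CMPK2, passed the filter only with the T0 libraries, where they were high, so nothing is read from this count. IFI6 had 63.5, 251 and 1910 TPM at T0 and 12.5, 12.6 and 217 TPM at T16 (edgeR adjusted p = 0.502), and ISG15 had 9.14, 9.40 and 91.4 TPM at T16 (edgeR adjusted p = 0.411). In both genes replicate 3 was the highest library of its group. RSAD2, the antiviral protein viperin, had 1.28, 6.61 and 14.6 TPM at T0 and 0 in all 3 T16 libraries, so it passed the filter through T0 alone (edgeR adjusted p = 0.104, DESeq2 adjusted p = 3.28e-08).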

How the data were processed

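RNA of 6 pools of bovine PMF, 3 at T0 and 3 at T16, was amplified with SMART-Seq v4, without molecular identifiers. Reads were trimmed by the authors (Trim Galore, fastp) and quantified with Salmon on transcripts of ARS-UCD1.3. The authors deposited estimated counts and TPM of single RefSeq transcripts, with lengths.

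Estimated counts and TPM were summed to gene symbols through RefSeq gene names of ARS-UCD2.0, used for names and gene order only. Of 76123 transcripts 50205 matched, and 9.74% to 10.91% of a library's counts were left out. Summed counts were rounded to whole numbers. edgeR 4.0.16 (R 4.3.3) with TMM scaling and the quasi-likelihood test compared T16 with T0 over the 14639 genes that had 10 counts or more in 3 libraries or more, adjusted by Benjamini-Hochberg over all of them. The scripts were tested on simulated data, where DESeq2 called more unchanged genes than edgeR did. Standard errors and fold changes are log2 values from this fit over n = 3 and 3 pools. Libraries were called non-overlapping on TMM-scaled CPM, and intervals are exact binomial. Alternatives were DESeq2 1.42.0, its size factors, transcript length offsets, 2 other filters, the replicate number as a block and each library left out.

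The members and lists were chosen with earlier results of these data known. Genes named are all members, all receptors, and up to 4 of each pathway list by mean TPM or by call; those called by DESeq2, and any gene named beyond these, were named after their values were seen. CCL7, HPGDS, ABCC4, TLR1, IFIT1 and CSF3R were not matched. No sequences were used here.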

Additional observations from a re-analysis of the deposited data

How the results depend on the processing

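The fold changes of the 7 members past the filter moved by less than the spread between replicates in 80 values and by more in 4. The sign turned in 2 genes, within that spread: IL6 went from -1.06 to 2.14 with the replicate block, and IL1B from 0.15 to -0.05 without T16 replicate 2 and to -0.04 without T0 replicate 2. IL6 did not pass the filter without T0 replicate 3, T16 replicate 1 or T16 replicate 2 and has no value there. Without T0 replicate 3 the log2 fold change was 13.48 for CXCL2 and 14.22 for CXCL8, both against libraries at 0, and without T16 replicate 1 it was 1.09 for IL1A. The value for CXCL8 was 9.23 with the replicate block.

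Counts of calls depended on the tool and on the filter, and the cause was not tested. edgeR called 5 genes higher and 1 lower. DESeq2 called 594 higher and 433 lower, with 2 members, and 8 higher and 6 lower pathway genes. With no filter edgeR called 4 genes lower. With at least 10 counts in all 6 libraries it called 13 higher, 6 lower and 0 members, since CXCL5 and the other chemokines then drop out. With each library left out in turn it called 0 to 2 genes higher, 0 to 1 lower and 0 to 1 members. CXCL5 was the member called without T0 replicate 1. DESeq2 size factors and length offsets left 5 higher and 1 lower.

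Same-numbered pools of T0 and T16 correlated at -0.393, -0.107 and 0.005 in their deviations from the group means, so they did not deviate together and the numbers were not used to pair them, which does not show that the pools are unrelated, and no library of T0 correlated best with its own number. With the replicate block edgeR called 0 higher, 0 lower and 0 members, with 1385 genes at an unadjusted p below 0.05.

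Depth limits the low members: 3 counts stood for 0.0906 to 0.151 CPM, and CCL2, CCL20 and LIF did not pass the filter. With 3 pools a group, a p that misses the threshold does not show that levels were alike.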

Other observations

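The genes whose log2 CPM followed the mean of the 7 tested members most closely over the 6 libraries were SHC1 (Pearson r = 0.9974), H3-3B (0.9884), LOC101904946 (0.9867), SPRED3 (0.9862) and CYP51A1 (0.9824). SHC1 encodes an adaptor of receptor tyrosine kinases, SPRED3 an inhibitor of Ras signalling and CYP51A1 an enzyme of cholesterol synthesis. With 6 libraries and 14639 genes searched these values describe the libraries and carry no p. Their log2 fold changes were 0.74, 0.58, 2.42, 2.23 and 1.74 in the same order.

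Among the leukocyte markers, CSF1R, the receptor of CSF1, had 8.31, 40.3 and 42.4 TPM at T0 and 37.8, 0.0736 and 6.89 TPM at T16, which is the order of the summed oocyte markers over the T16 libraries and over the T0 libraries. CD68, a lysosomal protein of macrophages, had 0, 0 and 0.838 TPM at T0 and 14.2, 1.00 and 5.51 TPM at T16 (edgeR adjusted p = 0.356). Its groups did not overlap, and it passed the filter only with the T16 libraries, where it was high.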
